A study of Mus musculus with 12 samples.

Results

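The 7 genes described here are the core of the Sonic hedgehog pathway: Shh, Ptch1, Smo, Gli1, Gli2, Gli3 and Hhip. They were taken by symbol from the deposited table of 18505 genes, in which each had 1 row, and all 7 passed the filter on low values that left 15288 genes for testing. Expression was measured by RNA sequencing of whole back skin taken on day 10, with 4 samples in each of 3 groups. The mice were male wild-type (WT) BALB/c, 5 to 6 weeks old when supplied, before the treatment. The control group received petroleum jelly and no imiquimod. The IMQ + NS group received imiquimod (IMQ) cream, a Toll-like receptor agonist that produces psoriasis-like lesions, for 6 h a day and then normal saline. The IMQ + BZLF group received the same cream and then the Banzhilian formula (BZLF), a herbal preparation applied to the skin, at a dose that the sources used here do not give for the sequenced samples. The backs of all mice were shaved first, and treatment ran for 10 days. In both imiquimod groups the skin was then covered with gauze and a polyurethane film, which the methods do not give for controls. Against control, the cream and the dressing therefore cannot be told apart. No group carried a transgene or deletion, and the model is limited to an induced lesion in whole skin of 1 sex and 1 strain. Values are given as FPKM, the number of sequenced fragments of a gene divided by its transcript length and by the sample's mapped total, and can therefore be compared between genes.

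Shh is a secreted protein that cells of the growing hair follicle make. Its receptor Ptch1 holds the membrane protein Smo inactive, and binding of Shh lifts that block, so that Smo enters the primary cilium and the Gli transcription factors are switched from repressors to activators. Gli1, Ptch1 and Hhip are themselves targets of Gli factors, which is why their transcripts are widely used as a readout of the pathway; Ptch1 and Hhip also bind the ligand and limit its action. In skin the pathway is known for its part in the downgrowth and regrowth of hair follicles and in basal cell carcinoma.

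One library has to be set apart before the results. The second of the 4 control samples (control replicate 2) stood above the other 3 controls in all 7 genes, and each comparison with controls is therefore given with and without it. That it stood apart was known from earlier results of these data, so the values without it are a description and are no independent support. The seminal vesicle genes Svs2, Svs4, Svs5 and Svs6, which skin does not make, were between 4.23 and 13.1 FPKM in control replicate 2 and between 5.19 and 13.1 FPKM in IMQ + BZLF replicate 2. In the other 10 samples they did not exceed 0.0441 FPKM. Pancreas transcripts were present too: Prss2 was at 32.0, 32.8, 37.9 and 3.09 FPKM in control, 9.67, 8.86, 45.1 and 0 FPKM in IMQ + NS and 31.7, 30.2, 38.8 and 2.63 FPKM in IMQ + BZLF replicates 1 to 4, so that it was highest in replicate 3 and lowest in replicate 4 of each group. The basal keratinocyte genes Krt5 and Krt14, which mark skin, were between 405 and 2958 FPKM in all 12 samples. The FPKM of a sample summed to between 444660 and 506622, with 16649 to 16941 genes above 0. The number of reads behind a value is unknown, since the files used here hold no counts. The numbering of the samples does not state that each came from a separate animal, so the p-values measure the spread between these samples.

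The ligand transcript, Shh, had the widest range of the 7 genes among controls as a ratio of the highest to the lowest sample. It stood at 1.14, 13.1, 0.0357 and 0.0449 FPKM in control replicates 1 to 4. The IMQ + NS samples had 4.59, 5.29, 3.76 and 4.55 FPKM, and the IMQ + BZLF samples 6.39, 3.65, 5.60 and 4.0 FPKM. Control replicates 3 and 4 were close to 0, control replicate 1 was low, and control replicate 2 was above every imiquimod-treated sample, so that controls overlapped both treated groups. The fitted difference of IMQ + NS from control was 2.61 on the log2(FPKM + 0.1) scale (SE 1.31, 95% interval -0.36 to 5.58, limma adjusted p = 0.117). Without control replicate 2 it was 3.99 (SE 0.72, limma adjusted p = 0.00136), and the 8 treated samples were all above the other 3 controls. The constant of 0.1 understates a fold change against values as low as those of control replicates 3 and 4. The gene spans chr5:28456815-28467256 on the minus strand (GRCm38, the assembly also called mm10), and 446 of its 2847 annotated exon bases lie opposite an antisense gene whose reads cannot be told apart unless strand was used in counting.

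The receptor Ptch1 was at 7.23, 33.7, 4.43 and 3.86 FPKM in the controls. In IMQ + NS samples it was at 15.4, 15.5, 11.6 and 14.0 FPKM, and in IMQ + BZLF samples at 18.6, 14.6, 15.8 and 17.0 FPKM. Control replicate 2 again exceeded all treated samples, and the other 3 controls lay below all of them. With all samples the log2 difference of IMQ + NS from control was 0.79 (SE 0.60, limma adjusted p = 0.282). Without control replicate 2 the difference was 1.48 (SE 0.21, limma adjusted p = 0.000372), a 2.78-fold higher level in the lesions. Ptch1 lies at chr13:63508328-63573598 on the minus strand.

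Smo, the signal transducer, was the most abundant of the 7 transcripts in every sample, and the ratio of its highest to its lowest value was the smallest of the 7. Its values were 22.9, 37.5, 21.4 and 22.0 FPKM in controls, 30.7, 30.4, 29.4 and 30.5 FPKM in IMQ + NS samples and 30.9, 27.5, 28.2 and 30.5 FPKM in IMQ + BZLF samples. The difference of IMQ + NS from control was 0.26 (SE 0.17, limma adjusted p = 0.217). Leaving out control replicate 2 gave 0.45 (SE 0.05, limma adjusted p = 9.28e-05), or 1.37-fold, which is below the 2-fold limit used for calls. The gene spans chr6:29735503-29761365 on the plus strand.

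Hhip, the decoy receptor that takes up hedgehog ligand, had the lowest level of the 7 in 10 of 12 samples, the exceptions being control replicates 3 and 4, in which Shh was lower. Its values were 0.273, 2.57, 0.180 and 0.184 FPKM in controls. They were 0.720, 1.21, 0.509 and 0.722 FPKM in IMQ + NS samples and 0.879, 0.814, 1.53 and 1.27 FPKM in IMQ + BZLF samples. As for Ptch1 and Shh, control replicate 2 was the highest of all samples and the other controls were the lowest. The log2 difference of IMQ + NS from control was 0.69 (SE 0.69, limma adjusted p = 0.413) with all samples and 1.47 (SE 0.27, limma adjusted p = 0.00145) without control replicate 2. Hhip lies at chr8:79965851-80058006 on the minus strand.

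Gli1, whose transcription is the most direct readout of the pathway, was at 6.22, 30.8, 2.26 and 2.27 FPKM in controls. The IMQ + NS samples were at 12.9, 12.9, 8.86 and 10.9 FPKM and the IMQ + BZLF samples at 14.7, 12.2, 14.0 and 13.8 FPKM. The order of the samples was that of Ptch1: control replicate 2 highest, the treated samples next, then control replicate 1, with control replicates 3 and 4 at the bottom. The difference of IMQ + NS from control was 0.98 (SE 0.74, limma adjusted p = 0.280) with all samples and 1.79 (SE 0.34, limma adjusted p = 0.00195) without control replicate 2. Gli1 lies at chr10:127329882-127341974 on the minus strand, and 265 of its 4995 annotated exon bases lie opposite an antisense gene.

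Gli2, the main activating Gli factor, was higher in IMQ + NS samples than in controls by the test. Its values were 1.74, 5.55, 1.21 and 1.28 FPKM in controls, 4.77, 4.81, 4.18 and 4.32 FPKM in IMQ + NS samples and 4.17, 3.88, 4.23 and 4.87 FPKM in IMQ + BZLF samples. The log2 difference of IMQ + NS from control was 1.15 (SE 0.42, limma adjusted p = 0.0438). Control replicate 2 was above all treated samples, so the groups overlapped, and the two-sided exact permutation p over the 4 and 4 samples was 0.143. The call was lost when any 1 sample other than control replicate 2 was left out, with limma adjusted p-values up to 0.113. Gli2 lies at chr1:118834132-119053619 on the minus strand.

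Gli3, the Gli factor known chiefly as a repressor, was the 1 member whose control and treated samples did not overlap. It was at 1.31, 3.21, 1.67 and 1.74 FPKM in controls, 4.68, 3.84, 3.47 and 3.97 FPKM in IMQ + NS samples and 4.98, 3.86, 4.53 and 5.44 FPKM in IMQ + BZLF samples. Control replicate 2 was the highest control for this gene too, but lay under the lowest treated sample. The log2 difference of IMQ + NS from control was 1.04 (SE 0.25, limma adjusted p = 0.00681), a 2.06-fold higher level. The exact permutation p was 0.0286, unadjusted and the smallest that 4 against 4 samples allow. The fold stood close to the 2-fold limit: without control replicate 1 it was 0.88 on the log2 scale, without control replicate 3 it was 0.99 and without IMQ + NS replicate 1 it was 0.96, with limma adjusted p-values of 0.0188, 0.0213 and 0.0229. Gli3 lies at chr13:15463235-15730026 on the plus strand.

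**Figure D1:**
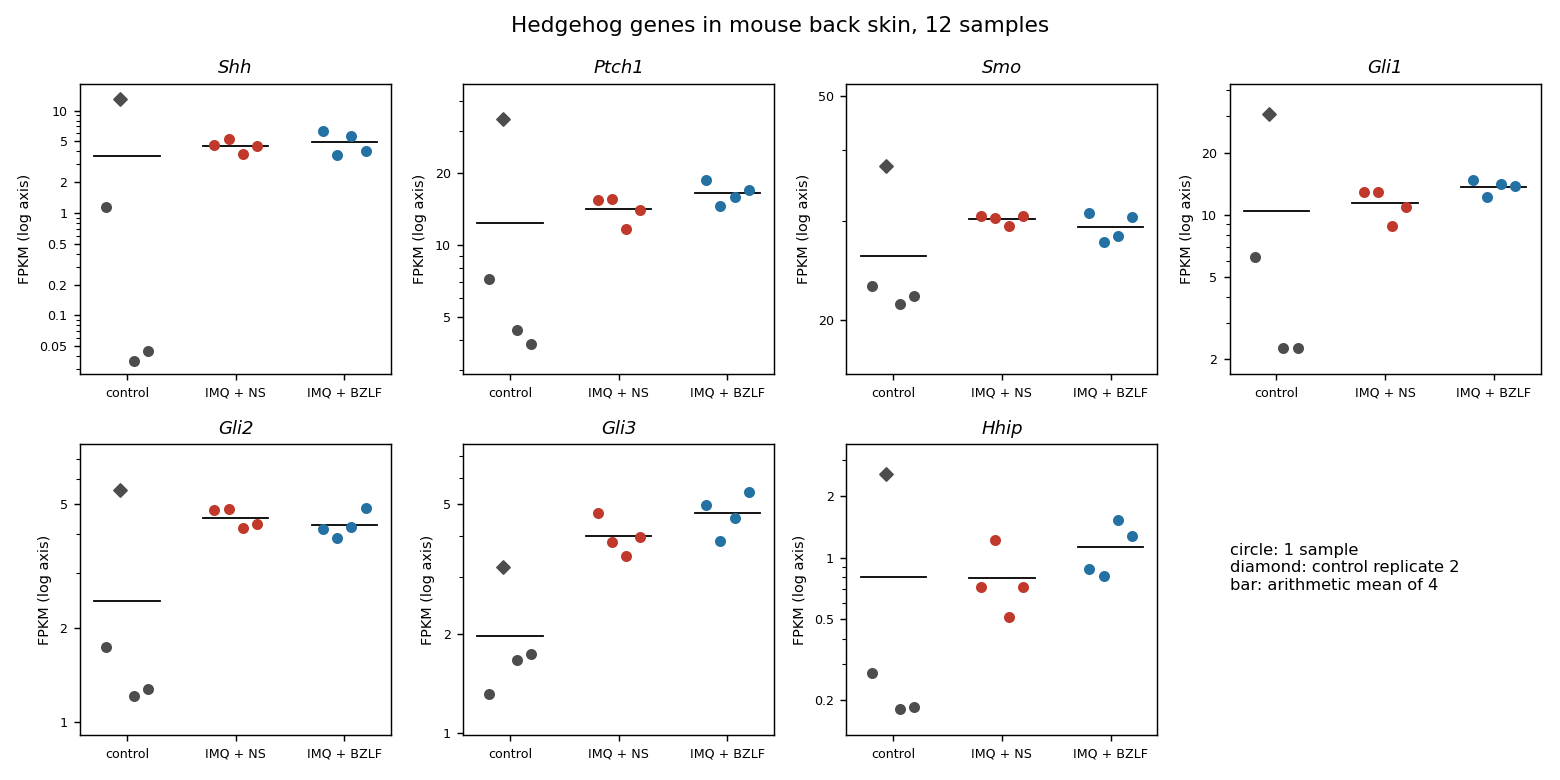
FPKM of the 7 hedgehog genes on log axes, 1 panel a gene, with 1 point a sample, the diamond for control replicate 2 and a bar at the arithmetic mean of the 4 samples of a group. Control replicate 2 is the highest sample for every gene except Gli3, for which it is at 3.21 FPKM under the lowest treated sample at 3.47 FPKM.

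In the comparison of IMQ + NS with control samples, 2 of the 7 genes (Gli2 and Gli3) were called higher at a limma adjusted p below 0.05 and more than 2-fold, beside 11.4% of all genes tested. None was called lower, beside 11.0% of all genes, and 0 had an unadjusted limma p below 0.05 in that direction. Only Gli3 had groups that did not overlap, as did 49.4% of all genes in either direction, so a separation of these groups was common. The median log2 difference of the 7 genes was 0.98, and that of all genes tested was 0.053. Without control replicate 2, the 6 genes other than Smo were called higher, beside 14.4% of all genes higher and 12.2% lower. Their log2 differences then ran from 1.29 for Gli3 to 3.99 for Shh. In bulk skin, a change in the number of cells that make a transcript and a change in the transcript per cell cannot be told apart.

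The IMQ + BZLF samples were set against the same 4 controls, so the comparisons share them and are given side by side only. The log2 differences of IMQ + BZLF from control were 2.70 for Shh, 1.02 for Ptch1, 0.21 for Smo, 1.26 for Gli1, 1.07 for Gli2, 1.27 for Gli3 and 1.16 for Hhip. Only Gli3 was called higher (SE 0.25, limma adjusted p = 0.00313), beside 9.65% of all genes higher and 10.1% lower. Its treated samples lay above all controls; for 47.5% of all genes the groups did not overlap in one direction or the other. The limma adjusted p of Gli2 was 0.0584, and those of the other 5 genes lay between 0.112 for Shh and 0.325 for Smo. Without control replicate 2, the 6 genes other than Smo were called higher, beside 12.7% of all genes higher and 11.8% lower, with log2 differences from 1.52 for Gli3 to 4.07 for Shh. Smo then had a log2 difference of 0.40 (limma adjusted p = 0.000925).

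Whether BZLF on the lesion went with a different level of the pathway was asked by comparing IMQ + BZLF with IMQ + NS samples, which does not involve the controls. None of the 7 genes was called in either direction, beside 0.321% of all genes higher and 2.20% lower, and 0 of the 7 had an unadjusted limma p below 0.05 or an exact permutation p below 0.05. The groups overlapped for all 7 genes, whereas those of 15.2% of all genes did not. The log2 difference was 0.08 for Shh with a 95% interval from -0.33 to 0.49. For Smo it was -0.05 (-0.17 to 0.07) and for Gli2 -0.08 (-0.28 to 0.13), so that a change of 2-fold in either direction lay outside the intervals of these 3 genes. The readout genes had positive differences, of 0.23 for Ptch1 (-0.017 to 0.47), 0.27 for Gli1 (-0.00012 to 0.55) and 0.47 for Hhip (-0.13 to 1.07). Gli3 had a difference of 0.23 (-0.056 to 0.51). Limma adjusted p-values ran from 0.220 for Gli1 to 0.830 for Shh. These p-values do not show that the levels were the same, and for Hhip the interval still holds a 2-fold rise.

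**Figure D2:**
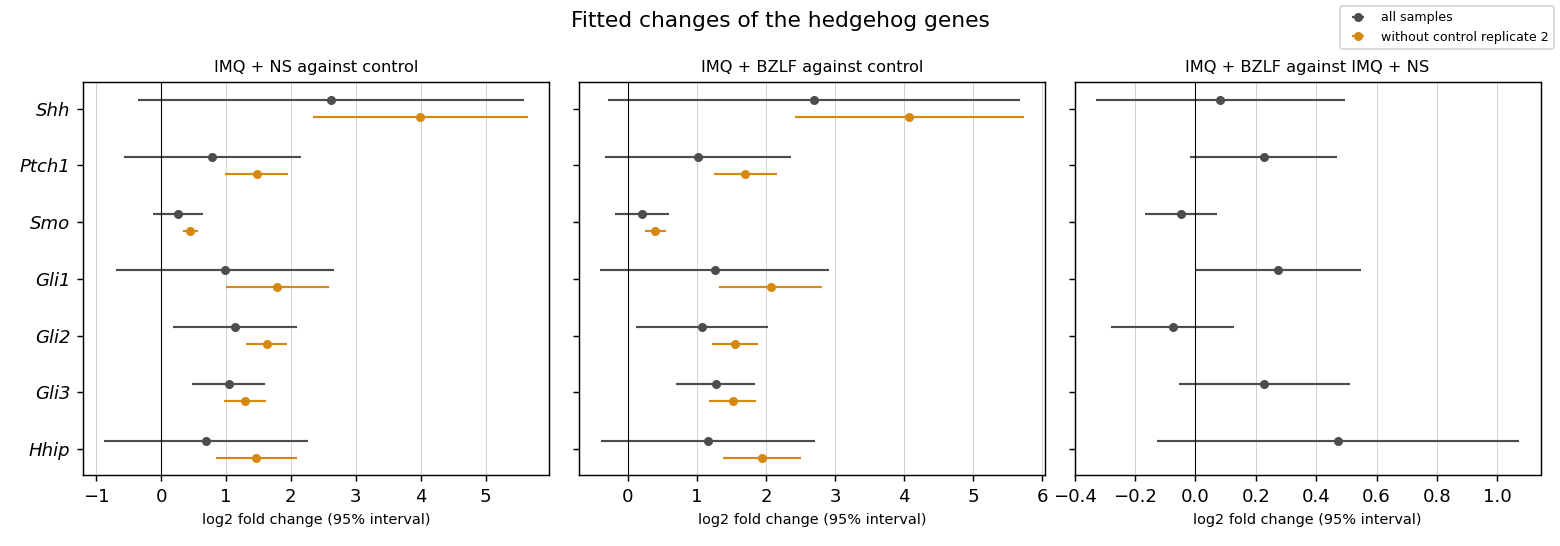
Fitted log2 differences of the 7 genes in the 3 comparisons, with points for estimates and lines for 95% intervals, in grey for all samples and in orange without control replicate 2; the panels have different horizontal scales. Without that sample the intervals against control lie to the right of 0 for all 7 genes, and with all samples in IMQ + BZLF against IMQ + NS every interval holds 0.

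How the genes stood to each other within a sample set control replicate 2 apart from the other controls. In all 12 samples the order of FPKM levels began with Smo, Ptch1 and Gli1. Below them, control replicates 3 and 4 had Gli3 above Gli2 and Shh last, while control replicate 2 had Shh in the next place after Gli1. The ratio of Gli1 to Gli3, both in FPKM, was 9.59 in control replicate 2 and 4.74 in control replicate 1, against 1.36 and 1.30 in control replicates 3 and 4. It ran from 2.56 to 3.37 in IMQ + NS samples and from 2.54 to 3.16 in IMQ + BZLF samples, within the range of the controls. The ratio of Ptch1 to Smo was 0.897 in control replicate 2 and 0.175 to 0.315 in the other controls. It was 0.396 to 0.511 in IMQ + NS samples and 0.531 to 0.603 in IMQ + BZLF samples, all above those 3 controls and below control replicate 2, and the treated groups did not overlap. Nor did they for Gli1 over Gli2, at 2.12 to 2.70 in IMQ + NS and 2.84 to 3.51 in IMQ + BZLF samples, or for Gli2 over Gli3, at 1.02 to 1.25 and 0.838 to 1.01. Gli1 over Gli3 overlapped between the treated groups. So did Gli1 over Ptch1, at 0.762 to 0.834 in IMQ + NS and 0.786 to 0.890 in IMQ + BZLF samples. The ratios share genes with each other, and 15.2% of all single genes did not overlap between these groups. The ratios were compared after the values had been seen and were not tested.

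The promoters of 5 of the 7 genes could be read from RefSeq on GRCm38.p6, the reference assembly, which is of another strain than BALB/c; Shh and Gli1 were not in that table. The 250 bases before the annotated start were searched on both strands for the Gli-binding sequence GACCACCCA and for its inner 6 letters CCACCC, which lie within the longer motif and also occur in sites of other factors. The windows of Ptch1, chr13:63565736-63565985, and of Gli3, chr13:15463473-15463722, lie inside the gene spans given above. That of Gli3 overlaps an annotated exon. The full motif was in 0 of the 5 and in 0.225% of 32851 mouse promoter windows. The inner letters were in 4 of the 5 (Smo, Gli2, Gli3 and Hhip, not Ptch1) and in 28.1% of all windows. The windows of Gli2, at chr1:119053620-119053869 with 2 matches, and of Hhip, at chr8:80058009-80058258 with 1 match, are printed as 1 transcription factor and 1 feedback target of the pathway, both above control replicates 1, 3 and 4 in every treated sample. Both are on the minus strand and written 5′ to 3′, with CCACCC or its reverse complement GGGTGG in capitals.
Gli2: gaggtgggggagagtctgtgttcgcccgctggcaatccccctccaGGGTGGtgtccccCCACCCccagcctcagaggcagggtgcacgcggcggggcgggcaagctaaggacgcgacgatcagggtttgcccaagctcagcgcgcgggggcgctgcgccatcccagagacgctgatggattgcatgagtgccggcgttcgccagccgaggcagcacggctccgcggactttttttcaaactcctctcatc
Hhip: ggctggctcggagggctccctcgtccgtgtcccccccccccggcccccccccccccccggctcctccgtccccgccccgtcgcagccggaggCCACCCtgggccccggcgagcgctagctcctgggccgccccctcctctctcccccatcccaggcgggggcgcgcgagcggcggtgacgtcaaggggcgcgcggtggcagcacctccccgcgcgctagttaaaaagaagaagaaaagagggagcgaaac
These letters are a description of the windows: 67.2% of the Gli2 window and 76% of the Hhip window are G or C, and a match is not a site in use.

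Control replicate 2 was compared with the other 3 controls without a test, as 1 sample against 3. It was more than 2-fold higher and outside their range in 5 of the 7 genes, beside 8.39% of all genes higher and 2.92% lower. With 0.1 added to each value, its level over the geometric mean of the other 3 controls was 45.5-fold for Shh, 9.42-fold for Gli1, 8.62-fold for Hhip, 6.64-fold for Ptch1 and 3.79-fold for Gli2. Gli3 was 1.99-fold and Smo 1.69-fold higher. The ligand and the targets thus stood further out than the transducer Smo and the repressor Gli3. Only 0.0785% of all genes tested were as far above the other controls as Shh, 0.641% as far as Gli1 and 13.4% as far as Smo.

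The rest of the pathway was followed in 59 further genes, of which 54 passed the filter. These are other ligands, proteins that process and release the ligand, receptors and co-receptors, proteins at the base of the cilium, regulators of Gli, target genes and subunits of the primary cilium. In IMQ + NS against control samples 3 of the 54 were called higher and 2 lower, both smaller shares than the 11.4% and 11.0% of all genes, and their median log2 difference was 0.19. The 3 were targets: Foxe1, a forkhead factor of the follicle, at 4.94 (SE 1.39, limma adjusted p = 0.0153), Prdm1, a transcriptional repressor of epidermal and sebaceous cells, at 2.15 (limma adjusted p = 9.7e-06) and Sox9, a factor of follicle stem and root sheath cells, at 1.66 (limma adjusted p = 0.000386). Foxe1 was at 1.13, 19.0, 0.0240 and 0.0725 FPKM in controls and between 22.1 and 29.1 FPKM in IMQ + NS samples. The 2 that fell act on the ligand or take part in its reception. Disp1, which releases lipid-bearing hedgehog ligand from the cell, fell by 1.35 (limma adjusted p = 0.000192), from 4.14 ± 0.82 to 1.54 ± 0.14 FPKM (mean ± SD, n = 4). Cdon, a co-receptor, fell by 1.24 (limma adjusted p = 0.000119), from 3.55 ± 0.47 to 1.44 ± 0.16 FPKM. The controls and the lesions did not overlap for any of these 5 genes.

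By role, 3 of 7 targets were called higher. Of the 5 genes for ligand processing and release 0 were called higher and 1 lower, and 1 of each sign had an unadjusted limma p below 0.05, as did 32.5% of all genes above 0 and 29.1% below it. Of the 4 receptors and co-receptors 1 was called lower. None of the 14 Gli regulators passed the 2-fold limit, but 8 were higher and 2 lower at an adjusted limma p below 0.05 alone, beside 29.0% and 27.1% of all genes. None of the 10 genes at the base of the cilium was called, with 3 lower at an unadjusted limma p below 0.05, and none of the 13 cilium subunits, with 1 higher and 2 lower at that level. The other ligand tested, Dhh, was between 0.334 and 0.677 FPKM in IMQ + NS samples and between 0.650 and 1.13 FPKM in controls. Ihh was at or under 0.0574 FPKM in every sample and did not pass the filter.

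In IMQ + BZLF against control samples 6 of the 54 were called higher and 3 lower, beside 9.65% and 10.1% of all genes, with a median log2 difference of 0.19. Those higher were Foxe1 at 5.24, Mycn, a growth-promoting factor of the Myc family, at 2.86, Prdm1 at 2.20, Sox9 at 1.50, Scube2, which helps to release the ligand, at 1.30 and Kif7, a kinesin of the cilium that regulates Gli, at 1.04. Disp1, Cdon and the ligand gene Dhh fell by 1.14, 1.10 and 1.03. Kif7 (limma adjusted p = 0.0454) and Mycn (limma adjusted p = 0.0321) overlapped between the groups, and the other 7 genes did not.

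Without control replicate 2, 12 of the 54 genes were called higher and 2 lower with saline, beside 14.4% and 12.2% of all genes, and 13 higher and 3 lower with BZLF, beside 12.7% and 11.8%. Genes that passed only then with saline included the Gli regulators Kif7, Stk36, Csnk1a1 and Csnk1g1 and the targets Ccnd1 and Mycn. Also among those that passed only then were 2 of the 5 genes for ligand processing and release. Scube1 had a log2 difference of 1.32 in IMQ + NS samples (SE 0.20, limma adjusted p = 0.000547) and 1.77 in IMQ + BZLF samples (SE 0.19, limma adjusted p = 8.83e-05). Scube3 had 1.23 (SE 0.27, limma adjusted p = 0.00384) and 1.42 (SE 0.25, limma adjusted p = 0.00118). Control replicate 2 alone was more than 2-fold above the other controls in 10 of the 54, beside 8.39% of all genes. It was as far below them in 0, beside 2.92% of all genes. Those above included, over the same geometric mean, Foxe1 (64.3-fold), Mycn (17.5-fold), Scube3 (8.89-fold) and Scube1 (5.87-fold). The other genes for ligand processing and release did not move as one. Hhat was 2.41-fold, but Scube2 was 0.60-fold and Disp1 0.71-fold, both below the range of the other controls.

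In IMQ + BZLF against IMQ + NS samples limma called 0 of the 54 genes. Of the 54, 8 higher and 4 lower had an unadjusted limma p below 0.05, beside 7.96% and 14.8% of all genes. Exact permutation p-values were below 0.05 for 6 higher and 3 lower. These were the genes whose groups did not overlap, as was so for 15.2% of all genes in either direction. At an adjusted limma p below 0.05 without a limit on the fold, 2 of the 54 were higher and 2 lower, beside 1.28% and 5.17% of all genes. Evc, a protein at the base of the cilium that passes on the signal of Smo, was higher by 0.30 (limma adjusted p = 0.0456), and the cyclin Ccnd2 by 0.29 (limma adjusted p = 0.0429). Arrb2, a beta-arrestin, fell by 0.69 (limma adjusted p = 0.00857), and the kinase Grk2 by 0.33 (limma adjusted p = 0.014); both act on Smo and on many other receptors. These 4 were named after their values had been seen.

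**Figure D3:**
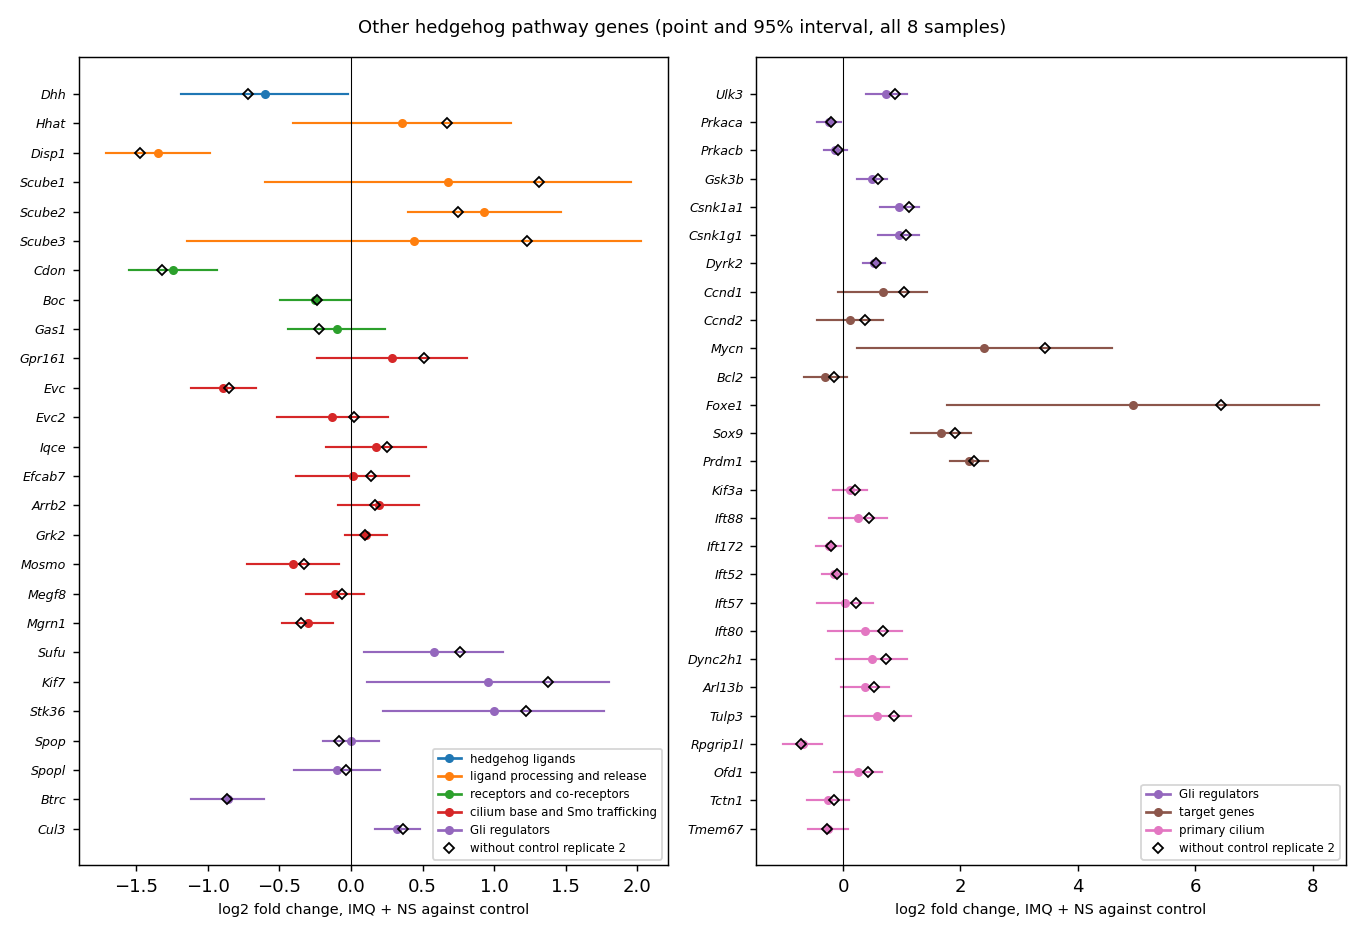
Log2 differences between IMQ + NS and control samples for other pathway genes tested, coloured by role, with points and 95% intervals from all 8 samples and open diamonds without control replicate 2; the 2 panels have different horizontal scales. Foxe1, Prdm1 and Sox9 lie furthest to the right and Disp1 and Cdon furthest to the left among the genes called.

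Against control and in control replicate 2, genes of the hair matrix and shaft and of dividing cells differed in the same direction as the hedgehog genes. Other lists of the follicle did not move as one. A list of 21 genes of the hair matrix and hair shaft summed to 39.1 to 101 FPKM in control replicates 1, 3 and 4, to 2377 FPKM in control replicate 2, to 14683 to 19719 FPKM in IMQ + NS samples and to 18667 to 27389 FPKM in IMQ + BZLF samples. All 21 were called higher against control in both treated groups, and all 21 were more than 2-fold above the other controls in control replicate 2. The hair list thus put control replicate 2 below every treated sample, whereas Shh put it above them. A list of 12 proliferation genes summed to 281 FPKM in control replicate 2, 27.3 to 49.3 FPKM in the other controls, 205 to 250 FPKM in IMQ + NS samples and 170 to 215 FPKM in IMQ + BZLF samples, with the same sample on top as for Shh. Of these 12, the test called 11 higher against control with saline and 4 with BZLF. The 14 genes of the dermal papilla, a cell cluster that receives the signal of Shh, summed to 162 FPKM in control replicate 2, 79.1 to 89.7 FPKM in the other controls, 90.1 to 106 FPKM in IMQ + NS and 69.3 to 92.7 FPKM in IMQ + BZLF samples. Every IMQ + NS sample was thus above control replicates 1, 3 and 4 in this sum. Crabp1 alone gave 27.0 to 53.6 FPKM of it in IMQ + NS samples and 19.0 to 20.8 FPKM in those controls. The median log2 difference of the 14 genes in IMQ + NS against control samples was -0.51. Of the 14 single genes, 1 was called higher and 4 lower in IMQ + NS samples, and 2 in each direction in IMQ + BZLF samples. The 10 genes of follicle stem cells and the bulge summed to 638 FPKM in control replicate 2, 664 to 837 FPKM in the other controls, 289 to 364 FPKM in IMQ + NS and 361 to 441 FPKM in IMQ + BZLF samples. Of 9 tested, 2 were called in each direction in IMQ + NS samples, and 2 higher and 3 lower in IMQ + BZLF samples. The part of these cell types in the results on the hedgehog genes was not tested.

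Other tissue in the samples also differed. The 10 skeletal muscle genes summed to 4217 FPKM in control replicate 2 and 9603 to 10557 FPKM in the other controls, and all 10 were called lower in both treated groups, which summed to 760 to 1838 FPKM. The 10 adipocyte genes summed to 6545 FPKM in control replicate 2, 9827 to 14730 FPKM in the other controls and 2868 to 4785 FPKM in the treated samples. The 6 fibroblast genes summed to 13084 to 18643 FPKM in controls and 3681 to 8109 FPKM in treated samples, with 5 of 6 called lower in both groups. The 6 melanocyte genes summed to 257 FPKM in control replicate 2, 45.1 to 67.1 FPKM in the other controls and 203 to 570 FPKM in treated samples. The 6 keratinocyte genes summed to 1849 FPKM in control replicate 2, 2062 to 2965 FPKM in the other controls, 4803 to 7614 FPKM in IMQ + NS and 2168 to 3715 FPKM in IMQ + BZLF samples. The 8 neutrophil genes, at 3132 to 9903 FPKM in IMQ + NS samples, summed to 64.1 to 85.0 FPKM in IMQ + BZLF and 37.9 to 57.1 FPKM in control samples, and all 8 were called lower with BZLF; the members of the hedgehog list were not called in that comparison. Their part in the results was not tested.

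**Figure D4:**
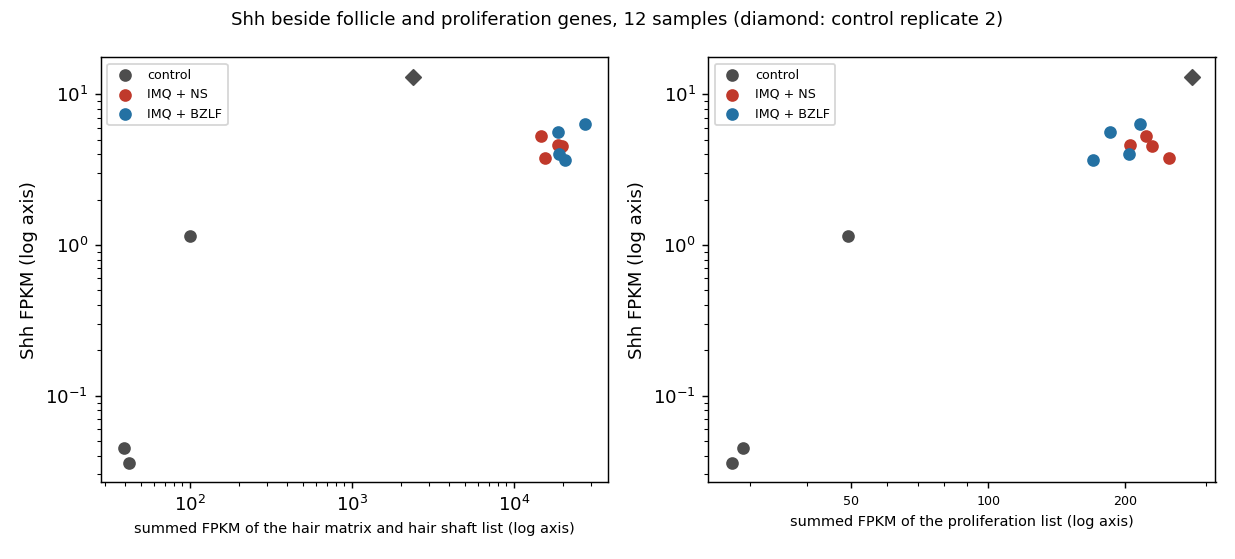
Shh FPKM of each of the 12 samples against the summed FPKM of 21 hair matrix and shaft genes on the left and of 12 proliferation genes on the right, on log axes, with the diamond for control replicate 2. That sample is highest for Shh, at 13.1 FPKM, and for proliferation, at 281 FPKM, but lies below the treated samples for the hair list, at 2377 FPKM.

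The genes whose pattern was most like that of Shh and Gli1 were sought among the 15281 tested genes that are not members, by the root mean square difference of centred log2(FPKM + 0.1) values over the 12 samples. Nearest to Shh were Mycn at 0.48, Acan at 0.49, Dlx2 at 0.53, Syt4 at 0.61 and Col11a1 at 0.61. Of these, Acan codes for the cartilage proteoglycan aggrecan, Dlx2 for a homeobox factor, Syt4 for a synaptotagmin and Col11a1 for a fibrillar collagen chain. All 5 were higher in control replicate 2 and in every treated sample than in the other controls, which follows from how they were chosen. Mycn was at 0.414 to 2.13 FPKM in control replicates 1, 3 and 4, 15.6 FPKM in control replicate 2 and 7.25 to 17.5 FPKM in treated samples. Among the 5 nearest to Gli1 were Alx4 at 0.22, Lhx2 at 0.25, Myb at 0.27 and Hapln3 at 0.28, and among the members Ptch1 at 0.23. Lhx2, a LIM homeobox factor of follicle stem cells, was at 3.23 to 5.37 FPKM in control replicates 1, 3 and 4, 25.3 FPKM in control replicate 2, 10.6 to 14.3 FPKM in IMQ + NS and 13.2 to 14.6 FPKM in IMQ + BZLF samples. The members furthest from Gli1 were Shh at 1.02 and Smo at 0.83. The values were centred but not scaled, so this measure also grows with a difference in the size of the changes. Shh and Smo had the coarse order of Gli1, Shh over a wider range and Smo over a narrower one. In that order control replicate 2 was highest, then came the treated samples, then control replicate 1, with control replicates 3 and 4 lowest. The 12 points of each pattern share their libraries, and the likeness is a description.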

How the data were processed

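RNA of 12 back skin samples was sequenced in 3 groups of 4, which the labels name. The authors deposited 1 table of FPKM values, scaled for transcript length and depth and not on a log scale, with 1 column a sample and 0 columns of no sample. The study's methods give mirVana extraction, a stranded total RNA kit, Bowtie2 alignment to transcripts and eXpress. The submitters' processing notes instead list fastp, HISAT2, HTSeq and R 3.2.0 with mm10, and the labels give TRIzol and another library kit. Which applies, and whether strand was used, is not given in the sources used here. FPKM that is scaled within a sample falls for a gene when other transcripts rise.

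Genes whose FPKM averaged 0.1 or more across all 12 samples were tested on log2(FPKM + 0.1) with limma 3.58.1 in R 4.3.3, with a trend on expression, for each pair of groups of 4, with Benjamini-Hochberg adjustment over all 15288 genes. A call needed an adjusted p below 0.05 and more than 2-fold. Single genes also had two-sided exact permutation tests, unadjusted. Python 3.11.15, pandas 2.3.3 and matplotlib 3.10.9 were used for the rest. The method was tested on simulated data. Positions come from the GENCODE annotation of GRCm38. The text names all members, the other pathway genes called (up to 12 a comparison), and the 5 genes most like Shh and like Gli1; exceptions are marked or are markers, and the results of 1 gene are not reported here. The members and lists were chosen with earlier results of these data known. The alternatives were another constant (0.01 or 1), another filter, 3 other scalings, other moderation or 1 fit of all 12 samples, other thresholds, the replicate number as a block, and leaving out each sample in turn.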

Additional observations from a re-analysis of the deposited data

Results flagged for a closer look

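A sample was marked where its gap to the nearest other sample of its group of 4 exceeded the critical share of the group's range in Dixon's test at the 95% level. For the 7 members and the 9 other pathway genes called, 48 groups were looked at and 11 marks were given. Chance marks about 1 group in 20 where groups are independent. Control replicate 2 was already known to stand apart and the genes vary together, so the count is no test against that rate. Of the 11, 10 were control replicate 2, and all 10 were high. Among the members these were Shh at 13.1 FPKM, Ptch1 at 33.7 FPKM, Smo at 37.5 FPKM, Gli1 at 30.8 FPKM, Gli2 at 5.55 FPKM and Hhip at 2.57 FPKM. Gli3 was not marked. Among the other pathway genes they were Foxe1 at 19.0 FPKM, Mycn at 15.6 FPKM, Sox9 at 8.66 FPKM and Kif7 at 4.14 FPKM. The remaining one was Cdon in IMQ + NS replicate 1, at 1.68 FPKM, above the other 3. The 10 marks of control replicate 2 come from 1 library and are not 10 separate events.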

How the results depend on the processing

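The count of members called higher in IMQ + NS against control samples, 2 in the report, was 0 with a constant of 1, 0 with samples rescaled to equal sums, and 1 without the filter, with quantile normalization or without the trend; leaving out 1 sample gave 0 to 6. Gli2 stood close to the limit on p and Gli3 to that on the fold. In IMQ + BZLF against control samples the count of 1 became 0 with a constant of 1, and 2 with median ratio scaling, with all 12 samples in one fit or with unadjusted p; leaving out 1 sample gave 1 to 6, and leaving out control replicate 2 and IMQ + BZLF replicate 2 together, chosen after seeing the data, gave 6. The other pathway genes called higher in IMQ + NS samples were 5 with a constant of 0.01 and 12 without a limit on the fold, and 3 to 12 with 1 sample left out; those called lower were 1 with a constant of 1 and 8 without the limit. Between the treated groups the limit kept out 2 higher and 2 lower. In IMQ + BZLF against control samples the higher were 16 and the lower 15 without the limit, 0 were lower with a constant of 1, leaving out 1 sample gave 4 to 13 higher and 1 to 3 lower (1 without IMQ + BZLF replicate 1), and leaving out both replicates 2 gave 14 higher. The larger constant shrinks the fold of low genes; other causes were not tested. Changes of sign were limited to differences near 0 between IMQ + BZLF and IMQ + NS samples: Smo was 0.0080 with median ratio scaling, and Shh, from -0.055 to 0.21 with 1 sample left out, was below 0 without IMQ + BZLF replicate 1 (-0.055) and without IMQ + NS replicate 3 (-0.0043). Rescaling to equal sums moved the median of all genes in IMQ + BZLF against control to -0.12 on the log2 scale, from -0.018. With the replicate number as a block the members called were 2, 0 and 1 in the 3 comparisons, as without it. Same-numbered samples had correlations from -0.15 to 0.26. Replicates 3 and 4 correlated best with their own number in each comparison, and replicate 2 in none. The pancreas gene Prss2 was also highest in replicate 3 and lowest in replicate 4 of each group. The sources used here give no pairing, so the numbers were not taken as pairs. The depth behind low values such as Shh in control replicates 3 and 4 is unknown.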
